A study of Mus musculus with 16 samples.

Results

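A set of 47 mouse genes that carry out DNA replication and mitosis was followed across embryos with and without Ednrb. The genes were chosen by symbol from a list of cell cycle genes, and all 47 were found among the 56748 genes of the deposited expression table. They were divided by role into 25 genes that act in S phase, 20 that act in mitosis, and the 2 D cyclins Ccnd1 and Ccnd2. Expression is given as FPKM, fragments scaled for gene length and library depth. All 47 genes passed the filter of at least 0.5 FPKM in at least 4 libraries, as did 17205 of the 56748 genes. Over all 16 libraries the mean level of the members ran between 5.82 FPKM for E2f2 and 122 FPKM for Rrm2, and they lie on 17 chromosomes.

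Before a cell copies its DNA, origins of replication are licensed when the Mcm helicase is loaded by Cdc6 and Cdt1. Cyclin E and the E2F factors open S phase, in which Cdc45 and the GINS complex turn the helicase into an active motor, the polymerases copy the strands and ribonucleotide reductase supplies deoxynucleotides. Cyclin B with Cdk1, the Polo and Aurora kinases and the kinetochore proteins then drive mitosis, and Cdc20 with the anaphase-promoting complex (APC/C) ends it. Genes of both phases are expressed in cycling cells and are switched off when neurons and muscle fibres leave the cycle.

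Ednrb encodes the endothelin receptor type B, which the precursors of melanocytes and enteric neurons need, and its loss leaves mice with unpigmented areas of the coat. Total RNA was sequenced from the trunk and from the caudal region of midgestation (E11.5) embryos of 2 genotypes. The groups were Ednrb-/- trunk, Ednrb-/- caudal, WT trunk and WT caudal, with 4 libraries in each, and WT stands for Ednrb+/+ embryos. The libraries are labelled as biological replicates, but neither the labels nor the files say which Ednrb allele was used, on which background, whether genotypes were littermates, or whether a library held 1 embryo or a pool. Each region is a whole piece of embryo holding many cell types.

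Ednrb itself was measured at 3.37 to 4.80 FPKM in Ednrb-/- trunk, 1.59 to 3.44 FPKM in Ednrb-/- caudal, 35.8 to 41.8 FPKM in WT trunk and 26.2 to 33.5 FPKM in WT caudal libraries. It was therefore low but not at 0 in every library labelled Ednrb-/-. The libraries held between 34883821 and 43444905 reads in listed genes. Xist, which marks female cells, was high with Ddx3y under 1 FPKM in Ednrb-/- trunk 2, WT trunk 1, WT trunk 4 and WT caudal 1, and 3 libraries (Ednrb-/- trunk 3, Ednrb-/- caudal 3 and WT caudal 2) held both Xist and the Y-linked Ddx3y at 5 FPKM or more. Results are therefore also given without these libraries where that changes them.

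The promoters of S-phase and mitotic members were searched for sequence elements, without a test, because the report sets these 2 classes side by side. RefSeq promoter windows (build GRCm38.p6, 250 bases before to 50 bases after the start) were matched by symbol for 36 of the 47 members, giving 38 windows. Elements were searched on both strands: an E2F-type motif (any of TTCCCGC or else TTGGCGC or else TTCGCGC or else TTGCCGC), bound by E2F factors; a CHR-type motif (either TTTGAA or else TTCGAA), the cell cycle homology region read by the MuvB complexes with Mybl2 and Foxm1; and CCAAT, bound by NF-Y. The E2F and CCAAT motifs shared bases in 3 of the 38 windows, and no other pair did. The 6 promoters below, chosen after the motif counts were known, give the 250 bases before the start, with E2F-type motifs in capitals in the first 3 and both E2F-type and CHR-type motifs in capitals in the last 3.
Mcm5 (chr8:75109259-75109508, plus strand): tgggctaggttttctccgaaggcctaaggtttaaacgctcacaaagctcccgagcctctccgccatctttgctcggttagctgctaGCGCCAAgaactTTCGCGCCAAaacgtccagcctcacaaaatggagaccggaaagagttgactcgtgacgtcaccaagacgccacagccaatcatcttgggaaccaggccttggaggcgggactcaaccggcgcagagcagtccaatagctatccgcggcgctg
Mcm6 (chr1:128359706-128359955, minus strand): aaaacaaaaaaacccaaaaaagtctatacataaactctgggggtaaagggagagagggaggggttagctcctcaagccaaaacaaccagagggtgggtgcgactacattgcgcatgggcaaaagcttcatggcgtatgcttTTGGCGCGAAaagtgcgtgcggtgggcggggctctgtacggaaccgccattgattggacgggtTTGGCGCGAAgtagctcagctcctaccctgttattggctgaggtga
Pola1 (chrX:93632156-93632405, minus strand): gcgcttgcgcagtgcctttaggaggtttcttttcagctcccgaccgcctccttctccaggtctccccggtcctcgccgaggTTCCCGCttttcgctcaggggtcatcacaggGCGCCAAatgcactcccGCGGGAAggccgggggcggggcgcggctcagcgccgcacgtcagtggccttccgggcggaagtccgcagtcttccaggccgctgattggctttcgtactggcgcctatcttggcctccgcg
Cdk1 (chr10:69352913-69353162, minus strand): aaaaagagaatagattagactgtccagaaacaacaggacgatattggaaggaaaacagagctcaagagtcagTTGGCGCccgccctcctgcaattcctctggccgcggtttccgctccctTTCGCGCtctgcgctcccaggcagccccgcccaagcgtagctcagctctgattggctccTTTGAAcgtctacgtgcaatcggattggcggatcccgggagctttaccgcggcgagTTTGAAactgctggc
Top2a (chr11:99024190-99024439, minus strand): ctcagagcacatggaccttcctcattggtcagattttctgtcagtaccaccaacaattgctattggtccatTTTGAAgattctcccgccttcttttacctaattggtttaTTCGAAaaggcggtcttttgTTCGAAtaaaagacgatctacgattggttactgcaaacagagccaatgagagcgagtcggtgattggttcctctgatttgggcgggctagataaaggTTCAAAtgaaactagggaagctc
Mki67 (chr7:135716380-135716629, minus strand): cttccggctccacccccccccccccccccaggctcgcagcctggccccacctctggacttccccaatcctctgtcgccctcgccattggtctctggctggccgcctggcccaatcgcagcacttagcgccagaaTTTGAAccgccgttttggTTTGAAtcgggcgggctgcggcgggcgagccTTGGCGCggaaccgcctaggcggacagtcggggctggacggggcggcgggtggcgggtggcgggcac

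In these upstream stretches Mcm5 held 3 and Mcm6 held 4 matches to the E2F-type motif, and Pola1 held 3. Neither Mcm5 nor Mcm6 nor Pola1 held a CHR-type match there. Top2a held 4 CHR-type matches and no E2F-type match, whereas Cdk1 and Mki67 held both kinds. Over the full windows, E2F-type motifs were found in 12 of 22 S-phase windows (54.5%) and 3 of 16 mitotic windows (18.75%), against 9.57% of all 32851 promoter windows. CHR-type motifs were found in 4 of 22 S-phase windows (18.2%) and 13 of 16 mitotic windows (81.25%), against 19.2% of all windows. CCAAT was found in 15 of 22 S-phase windows (68.2%) and 15 of 16 mitotic windows (93.75%), against 37.4% of all windows. Within the 250 upstream bases alone, 8 of the 16 mitotic windows held a CHR-type motif, the other matches touching the 50 bases after the start. A match is a run of letters and not a measured binding site.

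**Figure D1:**
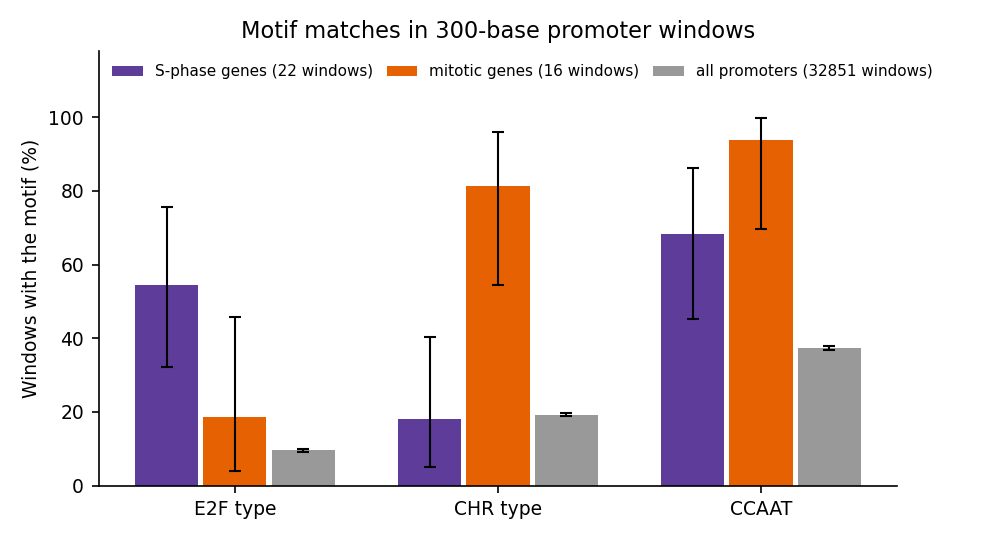
Share of 300-base promoter windows (y axis, percent) that hold each motif (x axis), for S-phase genes, mitotic genes and all promoters. Bars start at 0 and the whiskers are exact 95% binomial intervals. E2F-type motifs stood at 54.5% of S-phase windows and CHR-type motifs at 81.25% of mitotic windows, against 9.57% and 19.2% of all promoters.

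In the caudal region, the replication and mitosis genes were higher in Ednrb-/- than in WT embryos almost throughout. Of the 47 members, 44 rose and none fell by limma on log2(FPKM + 0.5) with Benjamini-Hochberg adjustment over all 17205 genes, where 21.7% of all genes tested were called higher and 19.9% lower. No member was lower even at an unadjusted p under 0.05, and the voom fit on recovered reads called 39 higher and none lower. The median difference was 0.35 on the log2 scale (Ednrb-/- minus WT), against 0.01 over all genes tested. In 44 members all 4 Ednrb-/- libraries also lay above all 4 WT libraries, which held for 19.1% of all genes. Measures of the whole library moved with this difference. Ribosomal protein genes took 3.51% to 3.68% of reads in Ednrb-/- caudal and 2.92% to 3.08% in WT caudal libraries, mitochondrial genes took 1.53% to 1.66% in Ednrb-/- caudal and 1.68% to 1.91% in WT caudal libraries, and 13328 to 13556 genes reached 1 FPKM in Ednrb-/- caudal, against 13771 to 13948 in WT caudal libraries. None of these ranges overlapped, and their part in the members' differences was not tested. In whole pieces of tissue, more cells that cycle and more RNA per cycling cell cannot be told apart.

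Markers of cells that have left the cycle were mostly lower in Ednrb-/- caudal tissue, where 41.6% of all genes tested were called in either direction. Of 12 markers of postmitotic neurons, 11 fell and 1 (Isl1) rose in Ednrb-/- against WT caudal tissue, and their summed level was 229 to 394 FPKM in Ednrb-/- caudal and 539 to 704 FPKM in WT caudal libraries. In the trunk 2 fell and 1 rose, a share near the 25.1% of all genes called there, and the summed levels of 599 to 677 FPKM in Ednrb-/- and 626 to 811 FPKM in WT libraries overlapped. Of the 11 of 12 skeletal muscle markers that were tested, 9 fell in caudal tissue and 9 fell and 1 rose in the trunk, with sums of 301 to 324 FPKM in Ednrb-/- trunk, 102 to 136 FPKM in Ednrb-/- caudal, 425 to 531 FPKM in WT trunk and 242 to 257 FPKM in WT caudal libraries. No neuron or muscle marker was at 0 in all libraries of a group, and Tnnc2 was the only one under 0.1 FPKM on average. Their part in the members' differences was not tested.

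All 12 genes of origin licensing and the helicase rose in caudal tissue, by 0.29 to 0.65. Mcm10, which helps to activate the helicase at the fork (chr2:4994525-5017602, minus strand, mm39), had 12.9, 16.4, 12.5 and 15.0 FPKM in Ednrb-/- caudal, against 8.34, 9.49, 9.51 and 8.08 FPKM in WT caudal libraries. The lowest Ednrb-/- library lay well above the highest WT library, and the difference of 0.65 ± 0.07 (SE, adjusted p = 1.41e-05), or 1.57-fold, was the largest of any member. Mcm3, a subunit of the hexameric helicase, had 73.8, 82.1, 74.3 and 81.6 FPKM in Ednrb-/- caudal, against 53.9, 58.6, 59.6 and 53.1 FPKM in WT caudal libraries, a difference of 0.47 ± 0.05 (SE, adjusted p = 1.09e-05). Its sister subunit Mcm4 had 88.1, 97.8, 87.0 and 92.6 FPKM in Ednrb-/- caudal, against 71.3, 74.6, 70.7 and 69.1 FPKM in WT caudal libraries, again without overlap (0.35 ± 0.04, adjusted p = 1.13e-05). The loaders Cdc6 and Cdt1 rose by 0.56 and 0.48.

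The genes of synthesis itself rose too: all 4 of the polymerases and clamp and all 4 of nucleotide supply. Pole, the catalytic subunit of the leading-strand polymerase, had 13.9, 14.2, 13.4 and 14.0 FPKM in Ednrb-/- caudal, against 9.69, 11.0, 9.96 and 10.1 FPKM in WT caudal libraries, a difference of 0.43 ± 0.05 (SE, adjusted p = 2.1e-05). Rrm1, the large subunit of ribonucleotide reductase, had 45.2, 50.7, 44.1 and 47.2 FPKM in Ednrb-/- caudal, against 34.4, 37.1, 36.7 and 32.5 FPKM in WT caudal libraries (0.41 ± 0.05, adjusted p = 3.39e-05). The ranges of both genes were well separated. The small subunit Rrm2, the most abundant member, averaged 160.2 ± 18.8 FPKM in Ednrb-/- caudal and 109.6 ± 7.70 FPKM in WT caudal libraries (SD, n = 4 each). The sliding clamp Pcna differed by 0.51, the thymidylate synthase Tyms by 0.33 and the thymidine kinase Tk1 by 0.38.

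All 5 regulators of the step into S phase rose, by 0.18 to 0.51. Mybl2, the Myb factor of cycling cells, had 12.9, 15.6, 12.7 and 14.6 FPKM in Ednrb-/- caudal, against 9.98, 10.6, 10.2 and 9.93 FPKM in WT caudal libraries, a difference of 0.43 ± 0.06 (SE, adjusted p = 7.16e-05). Cyclin E1 (Ccne1) had 23.8, 31.5, 27.3 and 29.9 FPKM in Ednrb-/- caudal, against 17.9, 21.3, 20.2 and 18.6 FPKM in WT caudal libraries, and differed by 0.51. The other cyclin E gene, cyclin E2 (Ccne2), differed by only 0.18 (adjusted p = 0.0183), E2f1 by 0.25 and E2f2 by 0.23 (adjusted p = 0.0429). Neither the E2f2 nor the Ccne2 call was firm. That of E2f2 was lost in 13 of the alternatives, TPM, voom, a sex term, no filter and 6 single left-out libraries among them (adjusted p up to 0.198), and that of Ccne2 in 7, among them TPM, quantile normalization and voom (adjusted p up to 0.223).

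Of the 20 mitotic members 18 rose in caudal tissue, with a median difference of 0.30, where the 25 S-phase members had a median of 0.43. Cdk1, the mitotic kinase (chr10:69170976-69188768, minus strand), had 33.3, 39.2, 32.7 and 35.6 FPKM in Ednrb-/- caudal, against 27.5, 26.7, 27.9 and 24.96 FPKM in WT caudal libraries, a difference of 0.39 ± 0.06 (SE, adjusted p = 8.91e-05). Bub1b, a kinase-like protein of the spindle checkpoint, had 63.7, 67.8, 60.9 and 66.3 FPKM in Ednrb-/- caudal, against 47.9, 51.5, 53.4 and 45.7 FPKM in WT caudal libraries (0.38 ± 0.05, adjusted p = 4.76e-05). Cdc20, the APC/C activator, had 120.1, 145, 123 and 142 FPKM in Ednrb-/- caudal, against 87.0, 103, 106 and 91.0 FPKM in WT caudal libraries, and its 0.46 was the largest mitotic difference. The ranges of Cdk1, Bub1b and Cdc20 did not overlap between the genotypes.

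Not every mitotic gene moved by the same amount. The mitotic cyclins split: Ccnb1 rose by 0.38 and Ccna2 by 0.22, but Ccnb2 had 60.5, 62.0, 62.6 and 61.6 FPKM in Ednrb-/- caudal, against 59.0, 59.0, 57.8 and 55.7 FPKM in WT caudal libraries, a difference of 0.09 that missed the threshold (adjusted p = 0.0592). Ube2c, the E2 enzyme of the APC/C, also missed it at 0.13 (adjusted p = 0.0569). Foxm1, a transcription factor of mitotic genes, stood at the edge with 0.17 (adjusted p = 0.049). Its call was lost in 19 of the alternatives (adjusted p up to 0.397), and that of Cenpf in 4, among them TPM, voom and quantile normalization. Mki67, the gene of the proliferation antigen Ki-67, rose by 0.15 ± 0.03 (SE, adjusted p = 0.00202), less than any other called member. Its call was lost with TPM (0.05, adjusted p = 0.309), voom (0.08, adjusted p = 0.0685) and quantile normalization (-0.02, adjusted p = 0.658).

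In the trunk the direction was the same and the median difference smaller. Of the 47 members 37 rose in Ednrb-/- against WT trunk and none fell, where 12.2% of all genes tested were called higher and 13.0% lower. No member fell at an unadjusted p under 0.05 by limma, and voom called 33 higher and none lower. The median difference was 0.23 on the log2 scale, against 0.00 over all genes. In 36 members the ranges of the genotypes did not overlap with Ednrb-/- higher, which held for 13.9% of all genes. For mitotic genes the smaller size in the trunk depended on scaling. With TPM the mean over the mitotic members differed by 0.172 in the trunk and by 0.172 in the caudal region.

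Among the S-phase members 21 of 25 rose in the trunk, 11 of them among the 12 licensing and helicase genes. Mcm10 had 10.2, 10.2, 9.96 and 10.4 FPKM in Ednrb-/- trunk, against 7.67, 6.98, 7.09 and 7.26 FPKM in WT trunk libraries, a difference of 0.47 ± 0.07 (SE, adjusted p = 0.000452). Mcm4 had 73.2, 76.3, 75.4 and 74.1 FPKM in Ednrb-/- trunk, against 66.5, 62.5, 61.0 and 62.7 FPKM in WT trunk libraries (0.24 ± 0.04, adjusted p = 0.000514). Both genes were separated without overlap, and the spread among the Ednrb-/- trunk libraries was small. Pole had 10.7, 11.1, 12.7 and 12.2 FPKM in Ednrb-/- trunk, against 8.80, 8.29, 8.87 and 8.57 FPKM in WT trunk libraries, and its difference of 0.41 (adjusted p = 9.4e-05) was close to the 0.43 seen caudally. Rrm2 had 122, 127, 117 and 133 FPKM in Ednrb-/- trunk, against 98.4, 87.5, 92.0 and 95.8 FPKM in WT trunk libraries (0.41, adjusted p = 0.000905). Mybl2 had 10.7, 11.1, 10.6 and 12.3 FPKM in Ednrb-/- trunk, against 7.95, 8.46, 8.58 and 8.68 FPKM in WT trunk libraries (0.38, adjusted p = 0.000464).

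The 4 S-phase members that were not called in the trunk were the GINS subunit Gins2 (0.17, adjusted p = 0.0765), the primase Prim1 (0.10, adjusted p = 0.144), Tk1 (0.13, adjusted p = 0.167) and E2f2 (0.14, adjusted p = 0.276). Of the mitotic members 15 of 20 rose, and 9 without Ednrb-/- trunk 4 or without WT trunk 2. Mki67 had 87.1, 85.4, 89.0 and 89.1 FPKM in Ednrb-/- trunk, against 77.5, 69.9, 74.4 and 71.8 FPKM in WT trunk libraries, a difference of 0.25 ± 0.03 (SE, adjusted p = 9.81e-05). Cenpe, a kinetochore motor, had 28.8, 28.5, 28.6 and 28.7 FPKM in Ednrb-/- trunk, against 25.7, 22.1, 24.1 and 23.1 FPKM in WT trunk libraries (0.27, adjusted p = 0.000201). Plk1, the Polo kinase, had 47.4, 49.5, 50.01 and 56.8 FPKM in Ednrb-/- trunk, against 42.7, 40.0, 41.4 and 44.2 FPKM in WT trunk libraries (0.27, adjusted p = 0.012). None of these ranges overlapped. Ccnb2, Aurka, Aurkb, Kif20a and Ube2c were not called in the trunk, with differences of 0.08 to 0.17. The trunk calls lost most often were those of Birc5 (in 19 of the alternatives), Cdc45 (in 13), Ccna2 (in 11) and Cdk1 (in 10).

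The 2 D cyclins, which link growth signals to the G1 kinases, behaved unlike each other. Ccnd2 (chr6:127102125-127129156, minus strand) had 76.4, 73.8, 71.4 and 79.0 FPKM in Ednrb-/- trunk and 54.1, 55.5, 57.0 and 57.1 FPKM in WT trunk libraries. It had 78.0, 95.5, 77.8 and 79.8 FPKM in Ednrb-/- caudal and 62.2, 61.3, 64.6 and 64.6 FPKM in WT caudal libraries. Ccnd2 thus rose in both regions without overlap, by 0.42 in the trunk (adjusted p = 0.000112) and 0.38 in the caudal region (adjusted p = 7.95e-05). Ccnd1 (chr7:144483668-144493662, minus strand) had 42.1, 41.4, 41.6 and 42.2 FPKM in Ednrb-/- trunk, against 40.0, 42.7, 44.7 and 44.4 FPKM in WT trunk libraries. In caudal tissue it had 38.5, 46.5, 39.4 and 40.3 FPKM in Ednrb-/- and 37.4, 39.2, 43.3 and 40.7 FPKM in WT libraries. The Ccnd1 ranges overlapped in both regions, with differences of -0.04 (adjusted p = 0.683) in the trunk and 0.03 (adjusted p = 0.667) in the caudal region. Settings in which the caudal sign turned included TPM, voom and quantile scaling. Others were leaving out Ednrb-/- caudal 2 (-0.03) and keeping only libraries with Y-linked RNA and low Xist (-0.01). The ratio of Ccnd2 to Ccnd1 FPKM was 1.71 to 1.87 in Ednrb-/- trunk, 1.97 to 2.05 in Ednrb-/- caudal, 1.27 to 1.35 in WT trunk and 1.49 to 1.66 in WT caudal libraries, so it did not overlap between any 2 groups.

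**Figure D2:**
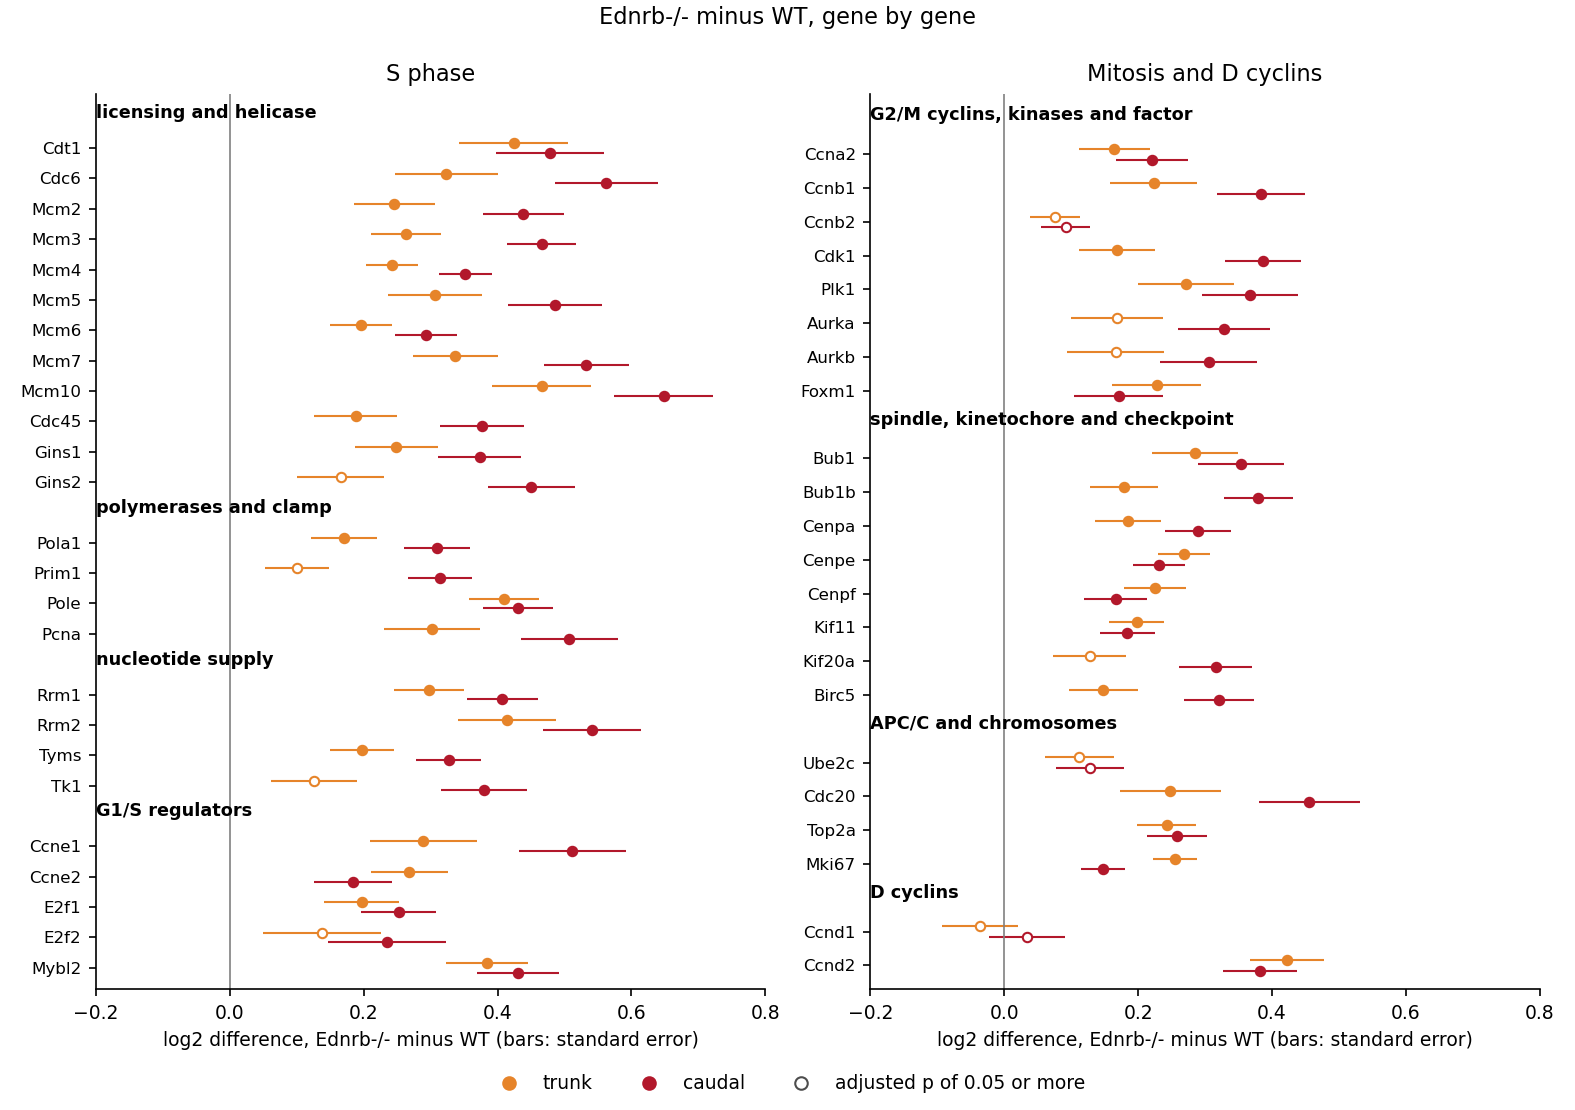
Difference between Ednrb-/- and WT embryos (x axis, log2, limma estimate with its standard error) for each of the 47 genes (y axis), in the trunk and the caudal region. Filled points passed adjusted p under 0.05. All 25 S-phase genes were called in the caudal region and 21 in the trunk, and of the estimates only Ccnd1 in the trunk lay below 0.

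Whether the effect of the genotype differed between regions was tested as an interaction (the caudal minus the trunk difference). Of the 47 members 40 had a larger difference in the caudal region (85.1%), as did 51.5% of all genes, but none was called by limma, where 6.76% of all genes tested were called, 2.98% higher and 3.78% lower. At an unadjusted p under 0.05, 12 members were larger in the caudal region and 1 in the trunk, and voom called none. Of all genes tested, 23.5% had such a p-value in either direction, so the members' share in either direction is near that of all genes. The share of all genes in 1 direction at that p-value was not counted. The nearest to the threshold were Prim1 (0.21, adjusted p = 0.0699) and Gins2 (0.28, adjusted p = 0.0748), both genes of replication. Without the 3 libraries that held both Xist and Ddx3y, Gins2, Tk1 and the kinesin Kif20a were called. Mki67 ran the other way (-0.11, adjusted p = 0.177) and was called under TPM and quantile scaling.

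The region comparisons place trunk against caudal tissue of the same genotype. They share libraries with the genotype comparisons, so their values are given side by side and not as further support. In Ednrb-/- embryos 38 of the 47 members were lower in trunk than in caudal tissue and none was higher, where 18.9% of all genes were called lower and 17.3% higher; no member was higher at an unadjusted p under 0.05, nor by voom. Cdt1, the licensing factor, differed most, by -0.47 ± 0.08 (SE, adjusted p = 0.00045), with 13.6, 13.7, 14.6 and 16.5 FPKM in Ednrb-/- trunk and 20.5, 23.0, 17.7 and 20.4 FPKM in Ednrb-/- caudal libraries. The ranges of Cdt1 were separate, as were those of 37 members in this direction, against 16.8% of all genes. All 12 licensing and helicase genes were lower, and 16 of the 20 mitotic genes. Of the 5 regulators of the step into S phase, 3 were not called, Ccne1 (-0.00, adjusted p = 0.97), Ccne2 (-0.03, adjusted p = 0.685) and E2f2 (-0.18, adjusted p = 0.125), and the ranges of these 3 genes overlapped between the 2 regions.

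In WT embryos the median regional difference was -0.14, against -0.25 in Ednrb-/- embryos; the members' interaction test above is the test of that contrast. Of the 47 members 17 were lower in trunk than in caudal tissue and none was higher, where 8.35% of all genes were called lower and 9.69% higher. At an unadjusted p under 0.05, 30 members were lower and 1 (Ccne1) higher, and voom called 22 lower and 1 higher. Of all genes tested, 31.2% had an unadjusted p under 0.05 in either direction. Cdt1 again differed most (-0.41, adjusted p = 0.00263), with 10.3, 11.3, 10.3 and 11.0 FPKM in WT trunk and 13.8, 15.8, 15.5 and 12.9 FPKM in WT caudal libraries. Its ranges did not overlap, nor did those of 17 members in this direction, against 10.3% of all genes. Ccne1 went the other way, with 25.4, 21.2, 21.3 and 23.3 FPKM in WT trunk and 17.9, 21.3, 20.2 and 18.6 FPKM in WT caudal libraries (0.22, adjusted p = 0.0736). This comparison rested on few libraries: the count of 17 became 8 without WT trunk 2, 8 without WT caudal 2, 9 without WT caudal 3, and 11 without WT trunk 3 or WT trunk 4.

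**Figure D3:**
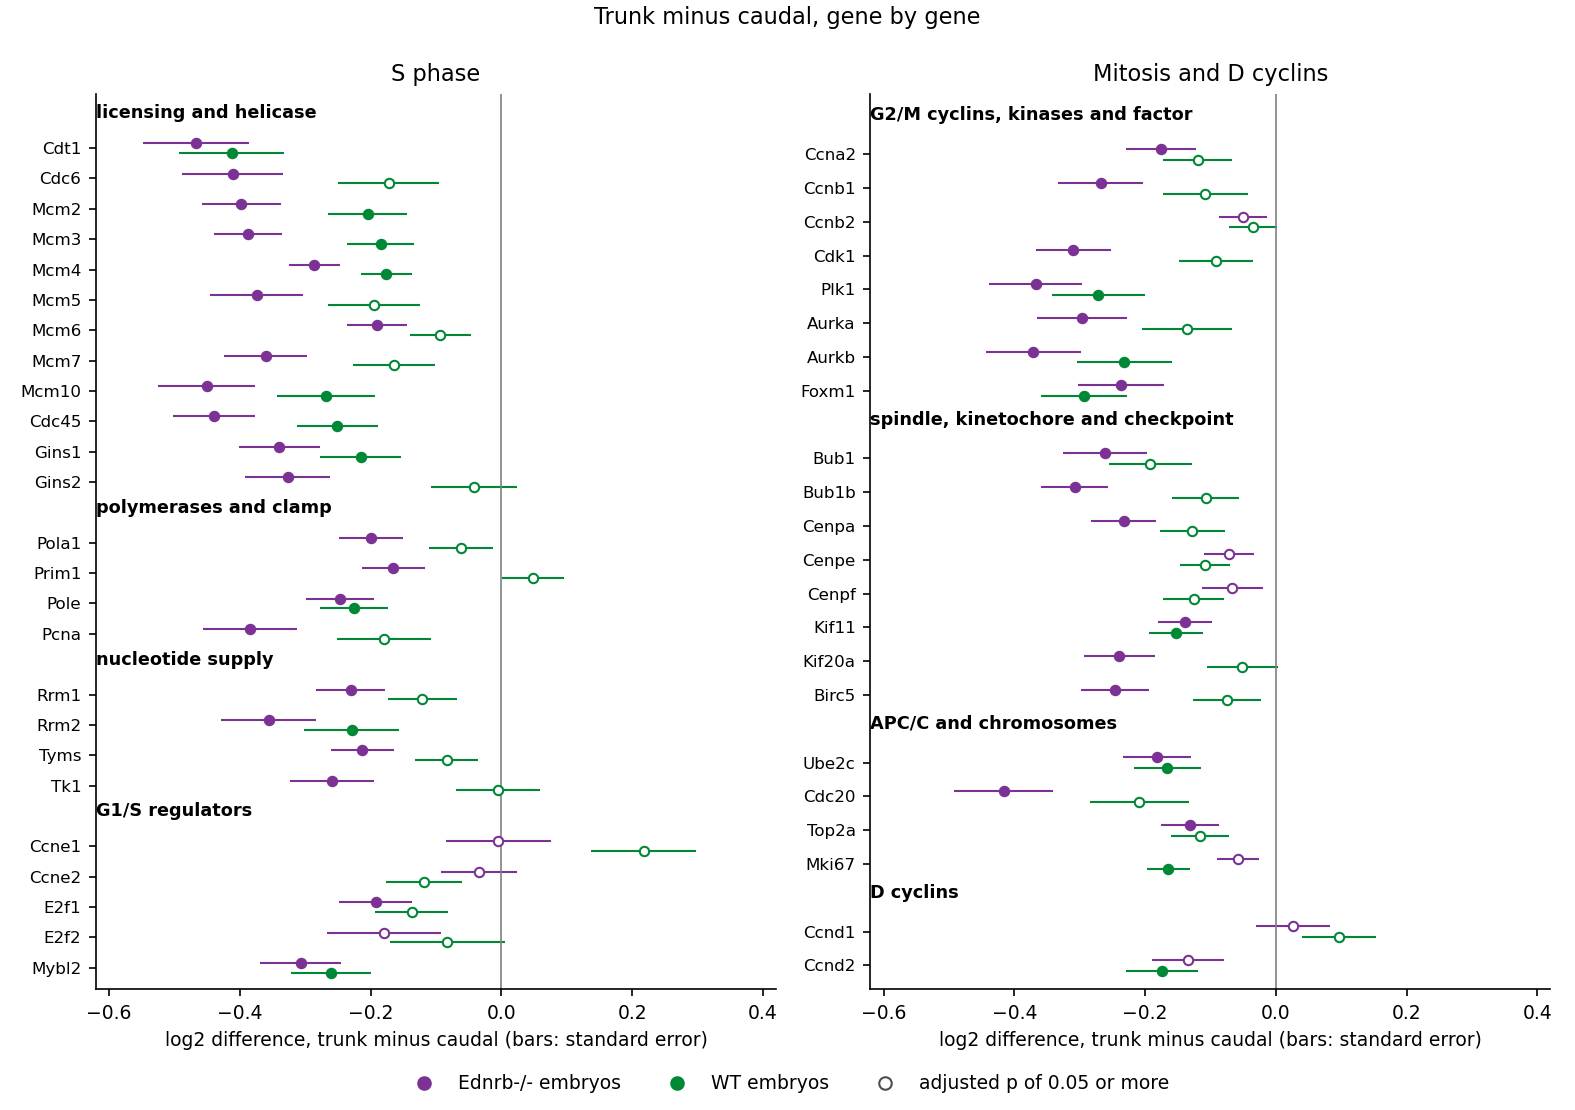
Difference between trunk and caudal tissue (x axis, log2, limma estimate with its standard error) for each gene (y axis), in Ednrb-/- and in WT embryos. Filled points passed adjusted p under 0.05. In Ednrb-/- embryos 38 genes were called lower in the trunk, in WT embryos 17, and Ccne1 in WT embryos lay furthest to the right at 0.22.

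Across the 4 groups the order of the group means was listed for each member, with no test and no count over all genes. The step between Ednrb-/- trunk and WT caudal mixes genotype with region and was not tested. Some means nearly tied there, as for Plk1 (50.93 against 50.85 FPKM). In 40 of 47 genes the group means fell in the order Ednrb-/- caudal, Ednrb-/- trunk, WT caudal, WT trunk. In 4 more (Cdc45, Aurkb, Foxm1 and Ube2c) Ednrb-/- trunk and WT caudal changed places, and Prim1 and Ccne1 were lowest in WT caudal. Ccnd1 alone was highest in WT trunk, although its ranges overlapped. The members together took 0.964% to 1.01% of reads in Ednrb-/- trunk, 1.07% to 1.17% in Ednrb-/- caudal, 0.811% to 0.887% in WT trunk and 0.896% to 0.954% in WT caudal libraries. These shares do not overlap between any 2 groups.

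The mean log2(FPKM + 0.5) of the 25 S-phase members was 4.60 to 4.70 in Ednrb-/- trunk, 4.83 to 5.03 in Ednrb-/- caudal, 4.32 to 4.42 in WT trunk and 4.44 to 4.58 in WT caudal libraries. That of the 20 mitotic members was 5.43 to 5.51 in Ednrb-/- trunk, 5.62 to 5.78 in Ednrb-/- caudal, 5.20 to 5.33 in WT trunk and 5.33 to 5.46 in WT caudal libraries. The S-phase ranges did not overlap between any 2 groups, while the mitotic ranges of Ednrb-/- trunk and WT caudal did, and so did those of WT trunk and WT caudal. The S-phase mean lay 0.81 to 0.83 below the mitotic mean in Ednrb-/- trunk, 0.72 to 0.79 in Ednrb-/- caudal, 0.88 to 0.91 in WT trunk and 0.87 to 0.94 in WT caudal libraries. S-phase genes were thus nearer to mitotic genes in Ednrb-/- than in WT tissue of either region, by 0.07 in the trunk and 0.14 in the caudal region. That gap depends on how the members are averaged: with the median over members it was 0.02 in the caudal region and -0.01 in the trunk. Within groups the members moved together: Ednrb-/- caudal 2 was the highest of its group in 38 of 47 genes, Ednrb-/- trunk 4 in 27 and WT trunk 1 in 33, while WT caudal 4 was the lowest of its group in 31.

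**Figure D4:**
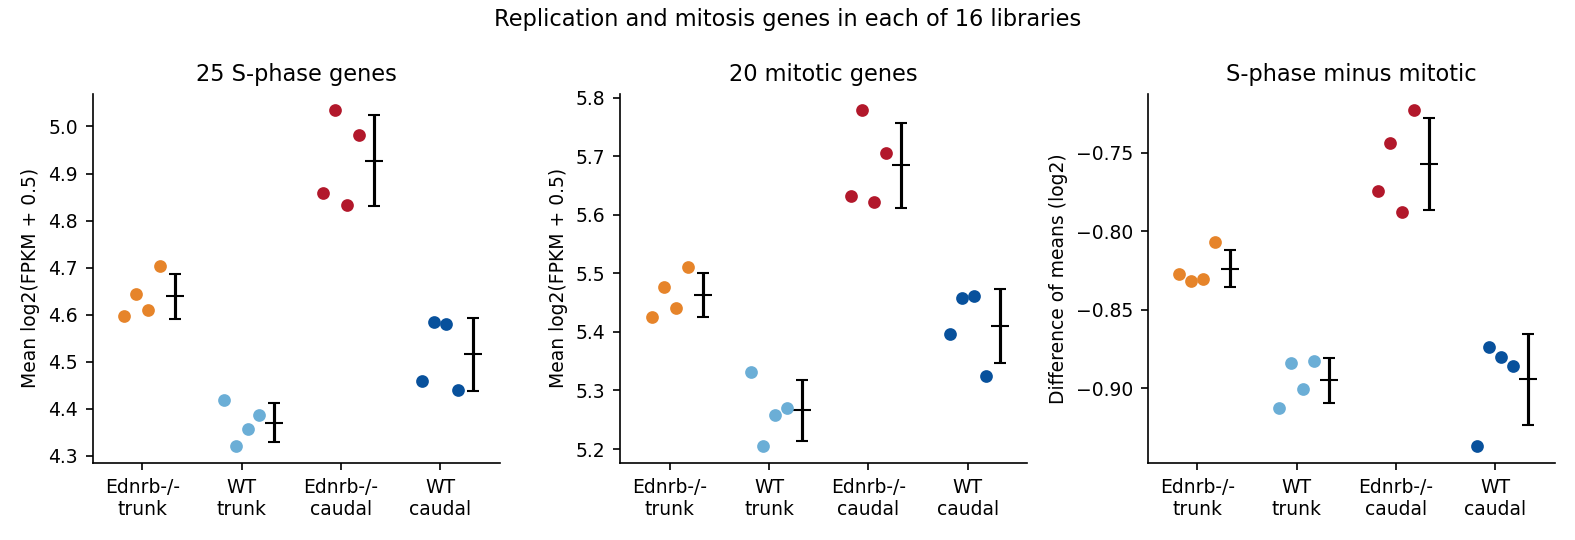
Mean log2(FPKM + 0.5) of the 25 S-phase and 20 mitotic genes and their difference (y axes) in each library (points), with the mean and SD of each group (black). In both panels of levels the Ednrb-/- libraries lie above the WT libraries of the same region, and the S-phase values run between 4.32 in WT trunk and 5.03 in Ednrb-/- caudal.

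**Figure D5:**
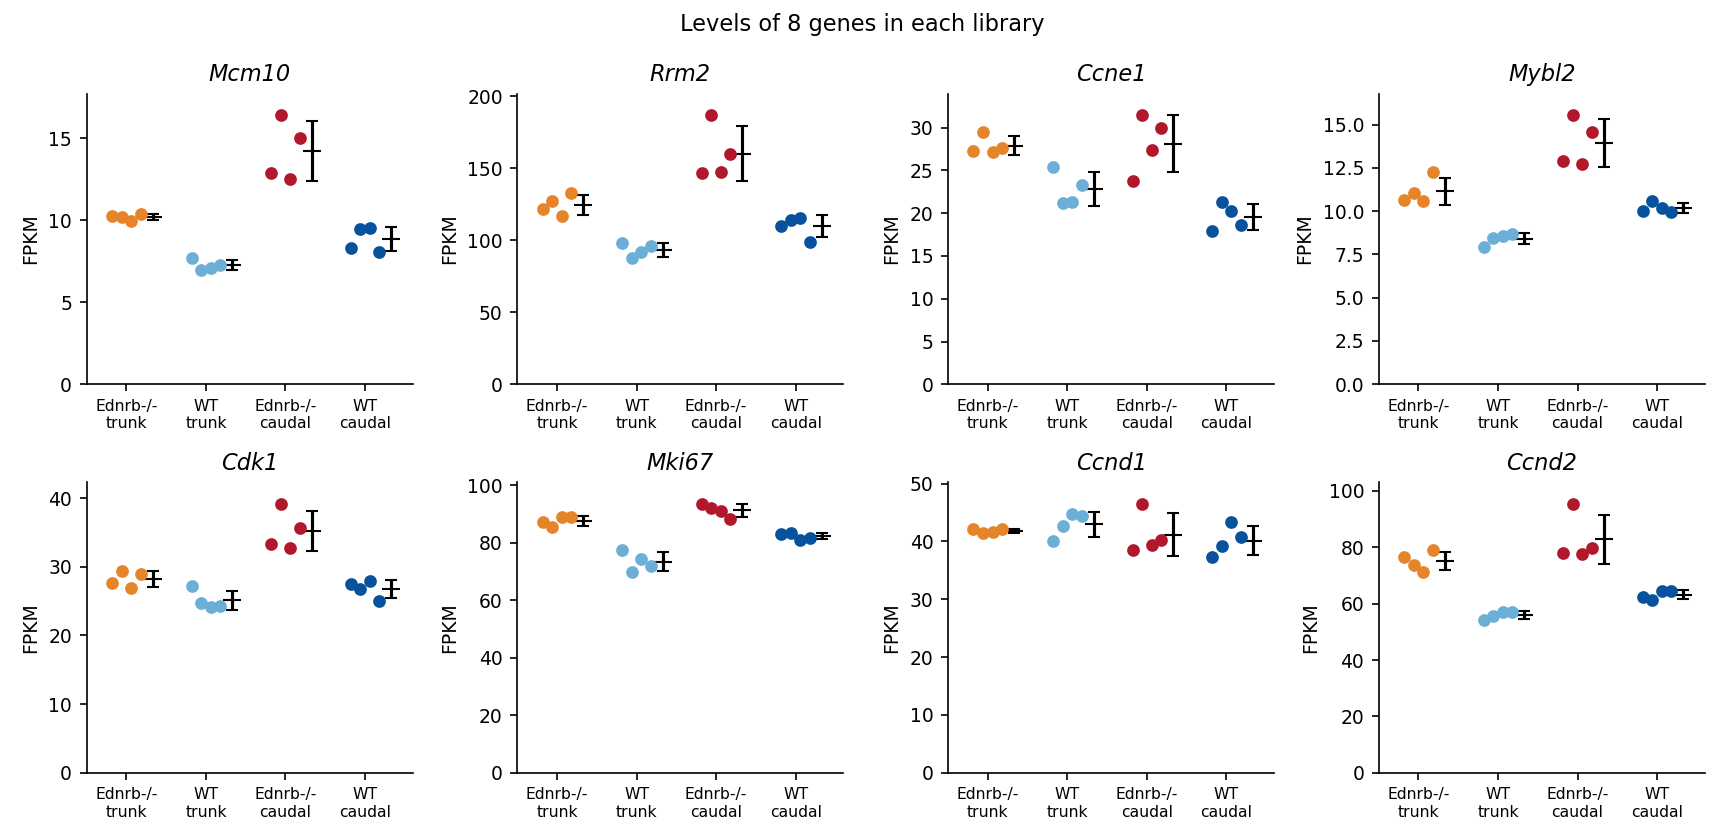
FPKM (y axis, from 0) of 8 genes in each library (points), with the mean and SD of each group (black). Mcm10, Rrm2, Mybl2 and Ccnd2 are separated between genotypes in both regions, whereas Ccnd1 overlaps in both.

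Other genes of the same pathways, not among the 47, moved alongside. Of 36 other replication genes, all 36 rose in Ednrb-/- against WT caudal tissue and 24 rose in the trunk, with median differences of 0.37 and 0.20. Of all genes tested, 21.7% were called higher and 19.9% lower in caudal tissue, and 12.2% higher and 13.0% lower in the trunk. The largest caudal differences were those of Dut, which hydrolyses dUTP (0.71), Orc1, the largest subunit of the origin recognition complex (0.60), Fen1, the flap nuclease of lagging-strand synthesis (0.57), and Gmnn, the inhibitor of Cdt1 (0.56). Dut had a mean of 49.4 ± 6.85 FPKM in Ednrb-/- caudal and 30.0 ± 3.53 FPKM in WT caudal libraries (SD, n = 4 each). Of 58 other mitosis genes, 46 rose and 1 fell in caudal tissue and 38 rose in the trunk; Cdca5 (sororin, which protects sister cohesion) rose most, by 0.54 and 0.37. The 1 that fell was the phosphatase Cdc25b, which lies upstream of Cdk1, with a mean of 16.1 ± 0.99 FPKM in Ednrb-/- caudal and 19.2 ± 1.14 FPKM in WT caudal libraries (-0.24, adjusted p = 0.00279).

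Upstream of these genes, 10 of 14 G1 kinases and drivers rose in caudal tissue and 8 in the trunk, and none fell. The shares of all genes called higher were 21.7% in caudal tissue and 12.2% in the trunk. Myc, the growth transcription factor, ranged between 13.6 and 21.0 FPKM in Ednrb-/- caudal and between 7.29 and 10.54 FPKM in WT caudal libraries, a difference of 0.86 (adjusted p = 0.000135). Its relative Mycn ranged between 24.7 and 30.5 FPKM in Ednrb-/- caudal and between 17.7 and 19.6 FPKM in WT caudal libraries (0.54, adjusted p = 1.09e-05). Neither overlapped, and in the trunk Myc rose by 0.50 (adjusted p = 0.0127) and Mycn by 0.46 (adjusted p = 0.000111). Cdk4, the kinase that binds the D cyclins, rose by 0.29 caudally.

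The brakes of the cycle were called in both directions. Of 19 listed genes 17 were tested, of which 9 fell and 3 rose in Ednrb-/- against WT caudal tissue, and 4 fell and 4 rose in the trunk. Of all genes tested, 19.9% were called lower and 21.7% higher in caudal tissue, and 13.0% lower and 12.2% higher in the trunk. The 3 that rose in caudal tissue are near the share of all genes and are not read as a rise of the brakes. Cdkn1c, a cyclin-dependent kinase inhibitor of cells leaving the cycle, ranged between 100.8 and 125 FPKM in Ednrb-/- caudal and between 173 and 193 FPKM in WT caudal libraries (-0.70, adjusted p = 3.52e-06). In the trunk it ranged between 162 and 192 FPKM in Ednrb-/- and between 215 and 242 FPKM in WT libraries (-0.36, adjusted p = 0.0011). Both pairs were separate, and the caudal fall was larger by the interaction test (-0.34, adjusted p = 0.0403). The pocket proteins Rb1 and Rbl2 each fell by 0.48 in caudal tissue. The brakes that rose in caudal tissue were the E2F family members E2f4 (0.28), E2f5 (0.34) and E2f7 (0.20), which repress E2F target genes.

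Markers of other tissues are set against the same shares of all genes, 41.6% called in caudal tissue and 25.1% in the trunk. Macrophage markers summed to 20.2 to 24.8 FPKM in Ednrb-/- trunk, 19.9 to 26.7 FPKM in Ednrb-/- caudal, 27.4 to 35.1 FPKM in WT trunk and 31.6 to 38.7 FPKM in WT caudal libraries, with 7 of 9 lower in Ednrb-/- trunk and 8 of 9 in Ednrb-/- caudal tissue. Cartilage and sclerotome markers were lower in Ednrb-/- caudal tissue for all 9 tested of 10, and limb bud markers were higher there for 6 of 8. The genotypes did not overlap in caudal tissue for 3 of the 8 limb bud markers. In the trunk 3 of the 9 cartilage and sclerotome markers were lower, and no limb bud marker was called. Neural progenitor markers had 3 higher and 1 lower of 10 in caudal tissue, and 2 higher and 1 lower in the trunk. Erythroid markers had 1 higher and 4 lower of 10 in caudal tissue, and 1 higher and 3 lower in the trunk. The counts of neural progenitor and erythroid markers are near these shares, so the counts alone are not read as a difference of those tissues. Summed neural progenitor levels were nonetheless lower without overlap in Ednrb-/- than in WT libraries. They were 191 to 213 against 257 to 321 FPKM in caudal tissue, and 255 to 270 against 282 to 381 FPKM in the trunk. Erythroid sums were 3650 to 4150 FPKM in Ednrb-/- trunk and 4692 to 6211 FPKM in WT trunk libraries, while the caudal sums overlapped. Posterior axis markers checked the regions: they summed to 1.66 to 2.25 FPKM in Ednrb-/- trunk and 1.34 to 1.88 FPKM in WT trunk libraries, but to 78.8 to 99.5 FPKM in Ednrb-/- caudal and 68.2 to 108 FPKM in WT caudal libraries, and Hoxc12 was at 0 in every trunk library. Although the caudal sums overlapped, 5 of the 8 posterior axis markers were higher and 2 (Hoxc12 and Hoxc13) lower in Ednrb-/- than in WT caudal tissue. In the trunk 6 of the 8 averaged under 0.1 FPKM in Ednrb-/- and 5 in WT libraries, so most could not be called there, and none was. The 4 called for the interaction, where 6.76% of all genes were called, are therefore not read apart from the caudal difference. The part of these tissues in the members' differences was not tested.

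Scaling and sex of the libraries limit the counts. With TPM the genes called between Ednrb-/- and WT caudal tissue were 30.6% higher instead of 52.1%, the median of all genes stood at -0.08, and 38 members were called higher. In Ednrb-/- trunk against Ednrb-/- caudal tissue 67.0% of calls were higher with TPM, instead of 47.8%, and in Ednrb-/- against WT trunk tissue 37.1% with voom, instead of 48.4%. With only the libraries that held Y-linked RNA and little Xist, 39 members were higher in Ednrb-/- caudal and 7 in Ednrb-/- trunk tissue, where 2 libraries a group were left in the trunk and its median difference was 0.26.

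Several members share their locus with another expressed gene on the opposite strand, and the strand setting of the read counting is not stated in the labels. Some of these neighbours were not called in caudal tissue: Cops6 beside Mcm7 differed by 0.09 (adjusted p = 0.118), Ufd1 beside Cdc45 by 0.07 (adjusted p = 0.167) and Ints8 beside Ccne2 by -0.01 (adjusted p = 0.858). Exosc9 beside Ccna2 rose by 0.33 (adjusted p = 0.00117), Elovl1 beside Cdc20 by 0.21 (adjusted p = 0.029) and Cdc23 beside Kif20a by 0.11 (adjusted p = 0.0226), and Gse1 beside Gins2 rose by 0.31 in the trunk (adjusted p = 0.0246), so reads of these pairs cannot be assigned with certainty. Pseudogene copies of Pcna, Tyms, Ccnb1 and Ccnb2 reached at most 3.82 FPKM in any library.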

How the data were processed

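RNA-seq of 16 libraries was analysed from the gene table deposited by the authors, which gives FPKM per gene and library. Per the submitters' processing notes, reads were handled with fastp, HISAT2 2.0.5 and featureCounts 1.5.0-p3 on mm39; the annotation, strand setting and FPKM denominator are not stated there. FPKM times gene length was divided by the smallest positive product of each library, which was taken as a single read. This gave whole reads (within 0.01) for 100% of values, 34883821 to 43444905 per library, which sets the depth. The 17205 of 56748 genes that reached 0.5 FPKM in 4 or more libraries were tested with limma 3.58.1 in R 4.3.3. Values were taken as log2(FPKM + 0.5), the model had a mean for each of the 4 groups, the prior variance followed the mean level, and p-values were adjusted over all tested genes by the Benjamini-Hochberg method; differences understate the change of low genes. A gene was called at adjusted p under 0.05. The members and lists were chosen with earlier results of these data known, so no list has a test. Members are named by role; per-library values are given for those of each role with the smallest adjusted p in a genotype comparison, other genes by size of change, and Cdt1, Ccne1, Ccnb2, Ube2c and the interactions were picked out after their values were seen. Promoters and their motifs come from RefSeq (GRCm38.p6), a build other than that of the reads, and serve only for sequence. The script was tested on simulated data with known changes. Within groups, libraries differed by more than sampling noise, so none was merged. Motif intervals are exact binomial and cover counting error only. Alternatives were other pseudocounts, filters, scalings (TPM, median of ratios, quantile), voom on the recovered reads, array weights, a sex term, a replicate block and leaving libraries out. P-values measure the spread between libraries, whose embryos are not described.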

Additional observations from a re-analysis of the deposited data

Results flagged for a closer look

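Among 188 groups of 4 libraries (47 genes in 4 groups), 7 held a library set apart from the other 3, and chance gives about 1 in 20 groups. Ccne1 in Ednrb-/- trunk 2 was high at 29.5 FPKM, with the others at 27.2 to 27.6 FPKM. Bub1 in Ednrb-/- trunk 1 was high at 42.7 FPKM, with the others at 39.4 to 39.9 FPKM, while Birc5 in the same library was low at 28.6 FPKM, with the others at 31.5 to 31.9 FPKM. Ccnd2 in Ednrb-/- caudal 2 was high at 95.5 FPKM, with the others at 77.8 to 79.8 FPKM. WT caudal 4 was low for 3 genes: Ccne2 at 12.5 FPKM (others 13.7 FPKM), Ccna2 at 45.6 FPKM (others 51.5 to 52.7 FPKM) and Ube2c at 53.1 FPKM (others 60.4 to 61.9 FPKM).

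The effect of the genotype differed between regions, by the interaction test of limma, for 5 of the 125 genes tested in the wider pathway lists, where 6.76% of all genes tested were called, so the share is below that of all genes. It was larger in the caudal region for Cdc7, the kinase that fires origins (0.23, adjusted p = 0.0236), and for Rpa2 (0.31, adjusted p = 0.0433) and Rpa3 (0.32, adjusted p = 0.0287), subunits of the single-strand binding protein RPA. Rpa2 had a mean of 25.5 FPKM in Ednrb-/- trunk, 33.1 FPKM in Ednrb-/- caudal, 23.3 FPKM in those of WT trunk and 24.4 FPKM in those of WT caudal. Tfdp2, a dimer partner of E2F factors, rose less in the caudal region (-0.22, adjusted p = 0.0426), and Cdkn1c fell more there (-0.34, adjusted p = 0.0403).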

How the results depend on the processing

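The count of members higher in Ednrb-/- caudal stayed between 37 and 45 over the alternatives run; the other counts moved more. Higher in Ednrb-/- trunk were 7 members with only libraries with Y-linked RNA and low Xist and 24 at adjusted p under 0.01, against 37. Lower in Ednrb-/- trunk than Ednrb-/- caudal were 24 with those libraries, against 38. Lower in WT trunk than WT caudal were 11 without a filter, 27 with quantile normalization, 8 without the libraries holding Xist and Ddx3y, 0 with only libraries with Y-linked RNA, and 6 at adjusted p under 0.01, against 17; leaving out 1 library gave 8 to 20. Higher in WT trunk was 1 (Ccne1) with TPM, quantile normalization and voom, and 0 to 1 leaving out 1 library. For the interaction 3 were higher without the libraries holding Xist and Ddx3y, 1 was lower (Mki67) with TPM and with quantile normalization, and leaving out 1 library gave 0 to 1 higher. The cause of these moves was not tested, except that the settings with fewer libraries leave 2 to 4 a group or, for a stricter threshold or no filter, change the adjustment.

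Quantile normalization turned Mki67 in the caudal genotype comparison to -0.0242 and Top2a in the Ednrb-/- region comparison to 0.0204. The S-phase minus mitotic gap, taken as a median over members, became -0.0121 for the trunk genotype, 0.014 for the Ednrb-/- region and 0.0492 for the WT region comparison. With TPM the S-phase mean differed by 0.311 and the mitotic mean by 0.172 between Ednrb-/- and WT caudal libraries, against 0.411 and 0.274. Between Ednrb-/- and WT trunk libraries they differed by 0.244 and 0.172 with TPM, against 0.268 and 0.197. Of 7238 single-gene values under alternatives, 6858 stayed called or stayed uncalled, 298 lost the call, 80 gained it and 2 reversed. The 6858 include uncalled values whose sign changed, such as Ccnd1 in the caudal genotype comparison.

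Replicate numbers did not pair the libraries: the deviations of same-numbered libraries correlated between -0.0836 and 0.109 over 24 pairs, 1 of them above 0.1, and 5 were best with their own number. With the replicate block 44 members were higher in Ednrb-/- caudal, 35 higher in Ednrb-/- trunk, 37 lower in the Ednrb-/- region and 16 lower in the WT region comparison.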

Other observations

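Cdkn1a, an inhibitor of cyclin-dependent kinases, was higher in trunk than in caudal tissue of both genotypes: it ranged between 8.51 and 9.28 FPKM in Ednrb-/- trunk and between 5.00 and 5.63 FPKM in Ednrb-/- caudal libraries (0.69, adjusted p = 4.95e-06). In WT embryos it ranged between 8.44 and 10.4 FPKM in trunk and between 5.84 and 7.33 FPKM in caudal libraries (0.54, adjusted p = 9.34e-05). Cdk6, a G1 kinase, ran the other way, with 2.29 to 2.58 FPKM in Ednrb-/- trunk and 3.62 to 4.25 FPKM in Ednrb-/- caudal libraries (-0.58, adjusted p = 5.99e-06), and 2.20 to 2.34 FPKM in WT trunk and 3.15 to 3.69 FPKM in WT caudal libraries (-0.50, adjusted p = 5.01e-05). Neither gene overlapped between the regions in either genotype.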
